A study of Mus musculus with 18 samples.

Results

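The 10 genes described here are tied to the quiescence of muscle stem cells or to braking of the cell cycle: Calcr, Spry1, Chrdl2, Cd34, Foxo1, Foxo3, Cdkn1a, Cdkn1b, Gas1 and Cd82. They were chosen by name, and all 10 held values among the 10792 genes with values in a table that listed 47729 genes. RNA-seq had been carried out on satellite cells, which are resident muscle stem cells, sorted as VCAM1+/CD31-/CD45-/Sca1- cells from digested hind-limb muscle of C57BL/6 mice aged 8.5 to 9 months. Non-activated cells came from non-pregnant mice (labelled MuSC, 3 libraries) and from pregnant mice (MuSCP, 3 libraries), and activated cells came from muscle punctured repeatedly with a 23-gauge needle, in non-pregnant mice (ACT, 6 libraries) and in pregnant mice (ACTP, 6 libraries). Libraries of non-injured mice were made from total RNA after depletion of ribosomal RNA and those of injured mice from poly-A selected RNA with another kit, so the kit and activation cannot be told apart in any comparison of activated with non-activated cells. The labels used here give neither the time after injury nor the stage of pregnancy, and they do not say whether the libraries of a group came from separate mice. The p-values thus rest on library-to-library spread alone, which may be technical.

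Adult satellite cells rest outside the cell cycle under the muscle fibre's basal lamina and re-enter the cycle after injury. Rest is held by several kinds of protein. Calcr, the calcitonin receptor, is a G protein-coupled receptor that in mouse satellite cells signals through cyclic AMP and protein kinase A. Spry1 damps receptor tyrosine kinase signalling, Chrdl2 is a secreted protein of the chordin family that binds bone morphogenetic proteins, and Gas1 is a membrane-anchored protein named for growth arrest that also acts as a co-receptor for hedgehog ligands. Cd34 is a surface sialomucin long used to mark quiescent satellite cells, and Cd82 is a tetraspanin that marks satellite cells in human muscle. Foxo1 and Foxo3 are forkhead transcription factors that growth factor signalling through AKT keeps out of the nucleus. Cdkn1a (p21) and Cdkn1b (p27) bind and inhibit cyclin-dependent kinases, and Cdkn1a is a classical target of p53.

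The upstream sequences of the 4 genes with the largest activation differences are shown, because these genes carry most of the results that follow. They were taken from RefSeq (GRCm38.p6), in which 9 of the 10 genes had an entry and Chrdl2 is only named here. Each run is printed 5′ to 3′ on the gene's strand, in lower case, and stops where the gene starts in the deposited table. Foxo1 is shown from chr3:52268087-52268335 on the plus strand, Foxo3 from chr10:42276756-42276945 on the minus strand, Calcr from chr6:3764715-3764963 on the minus strand and Cdkn1a from chr17:29090729-29090978 on the plus strand. Capitals mark the GC-box (GGGCGG), the CCAAT box (CCAAT) and the p53 half-site, each on either strand.
Foxo1: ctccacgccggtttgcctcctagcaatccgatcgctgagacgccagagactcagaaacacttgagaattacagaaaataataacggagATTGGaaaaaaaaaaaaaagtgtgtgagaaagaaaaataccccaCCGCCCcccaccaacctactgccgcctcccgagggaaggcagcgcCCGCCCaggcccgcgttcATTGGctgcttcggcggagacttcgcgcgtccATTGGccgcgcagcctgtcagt
Foxo3: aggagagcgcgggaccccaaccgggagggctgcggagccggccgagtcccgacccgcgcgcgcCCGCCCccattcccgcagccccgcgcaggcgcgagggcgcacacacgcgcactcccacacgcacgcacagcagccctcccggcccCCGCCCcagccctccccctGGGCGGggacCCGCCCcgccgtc
Calcr: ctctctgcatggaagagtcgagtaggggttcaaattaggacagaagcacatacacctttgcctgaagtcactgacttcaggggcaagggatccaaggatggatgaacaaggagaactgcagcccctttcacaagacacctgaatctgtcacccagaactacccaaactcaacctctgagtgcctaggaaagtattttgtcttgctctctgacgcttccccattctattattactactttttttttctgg
Cdkn1a: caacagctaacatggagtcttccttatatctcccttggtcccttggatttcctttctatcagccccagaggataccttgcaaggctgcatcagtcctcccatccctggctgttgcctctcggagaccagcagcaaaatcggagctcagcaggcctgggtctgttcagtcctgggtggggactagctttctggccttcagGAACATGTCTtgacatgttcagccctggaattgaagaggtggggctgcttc

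Only 1 RefSeq entry per gene was read, the nearest to the gene's start in the deposited table. Calcr and Cdkn1a had 2 entries each and Cd82 had 4, and the others are not described here. Over the full 250 bases before the start that was read, Foxo1 held 2 GC-boxes and 3 CCAAT boxes. Foxo3 held 5 GC-boxes at a GC content of 76.4%. Of 32851 promoters searched in the same way, 32.7% held a GC-box and 33.8% a CCAAT box, and the median GC content was 52.4%. Calcr held neither box at a GC content of 46.0%, with 1 E-box (CANNTG, in 66.2% of promoters) and 1 CHR element (TTTGAA, in 16.0%). Cdkn1a held 1 exact p53 half-site, which 1.63% of promoters held, and that motif was added after its sequence had been read. Cdkn1a held none of the other motifs searched, which were the GC-box, the CCAAT box, the E-box, the CHR element, the forkhead motif (TGTTTAC), the CSL motif (TGGGAA), the AP-1 motif (TGANTCA) and the cyclic AMP response element (TGACGTCA). The forkhead motif was in 0 of the 9 windows and in 3.17% of all promoters. Both strands were searched, no 2 marked motifs overlapped in the 4 runs, and a match describes letters only.

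Libraries held 14043324 to 24336842 counted reads over the genes with values. Each library's log2 values correlated with the others of its group at a mean r of 0.875 to 0.926 in non-activated cells and 0.980 to 0.989 in activated cells. Satellite cell markers with values were present throughout, while Itga7 and Cdh15 were listed without values. Pax7 had a mean normalized count of 18033 in MuSC, 11476 in MuSCP, 6625 in ACT and 6814 in ACTP. Summed over 6 of 8 markers, levels ran from 71474 to 84261 in MuSC and from 89607 to 130031 in MuSCP. The sums ran from 64919 to 103487 in ACT and from 71266 to 107139 in ACTP. The list did not follow Pax7 as a whole. With activation, by the test given below, 4 of 6 passed as higher and 1 as lower in non-pregnant mice, and 2 and 2 in pregnant mice. Of all genes, 72.6% and 72.8% passed in these comparisons, in either direction. For pregnancy at rest, 2 passed as higher and 1 as lower, against 4.62% of all genes, a share that depended on the fit. Markers of other cells moved with activation: the sum of 10 of 11 markers of fibro-adipogenic progenitors ran from 13241 to 30918 in non-activated and from 49809 to 141689 in activated libraries, and the sum of 5 of 12 leukocyte markers ran from 67.7 to 284 and from 774 to 7041. Ptprc, the gene of CD45, held no value, and no marker with values was at 0 in all libraries of a group. In bulk samples like these, fewer cells of a type and less RNA per cell cannot be told apart.

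In activated cells of non-pregnant mice, 5 of the 10 genes were lower and 1 was higher. Calcr, Chrdl2, Foxo1, Foxo3 and Cd82 were lower, and the CDK inhibitor Cdkn1a was higher. The other 4 genes, Spry1, Cd34, Cdkn1b and Gas1, did not pass the test. In pregnant mice the same 6 genes passed in the same directions. That comparison shared no library with the first but took its variance from the same fit, and both held the kit difference. How many of all genes passed alike in both was not counted. The test was limma on log2(normalized count + 1), fitted over all genes, with Benjamini-Hochberg adjusted p under 0.05. The background was broad: 72.6% of 10751 genes passed in non-pregnant mice (4189 higher and 3617 lower) and 72.8% in pregnant mice (4328 higher and 3504 lower), so a count of 6 of 10 is near what all genes showed. The median log2 difference was -0.63 for the 10 genes against 0.17 for all genes in non-pregnant mice, and -0.38 against 0.21 in pregnant mice. Libraries of the groups did not overlap for 5 of the 10 genes in either comparison, against 68.4% and 63% of all genes.

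**Figure D1:**
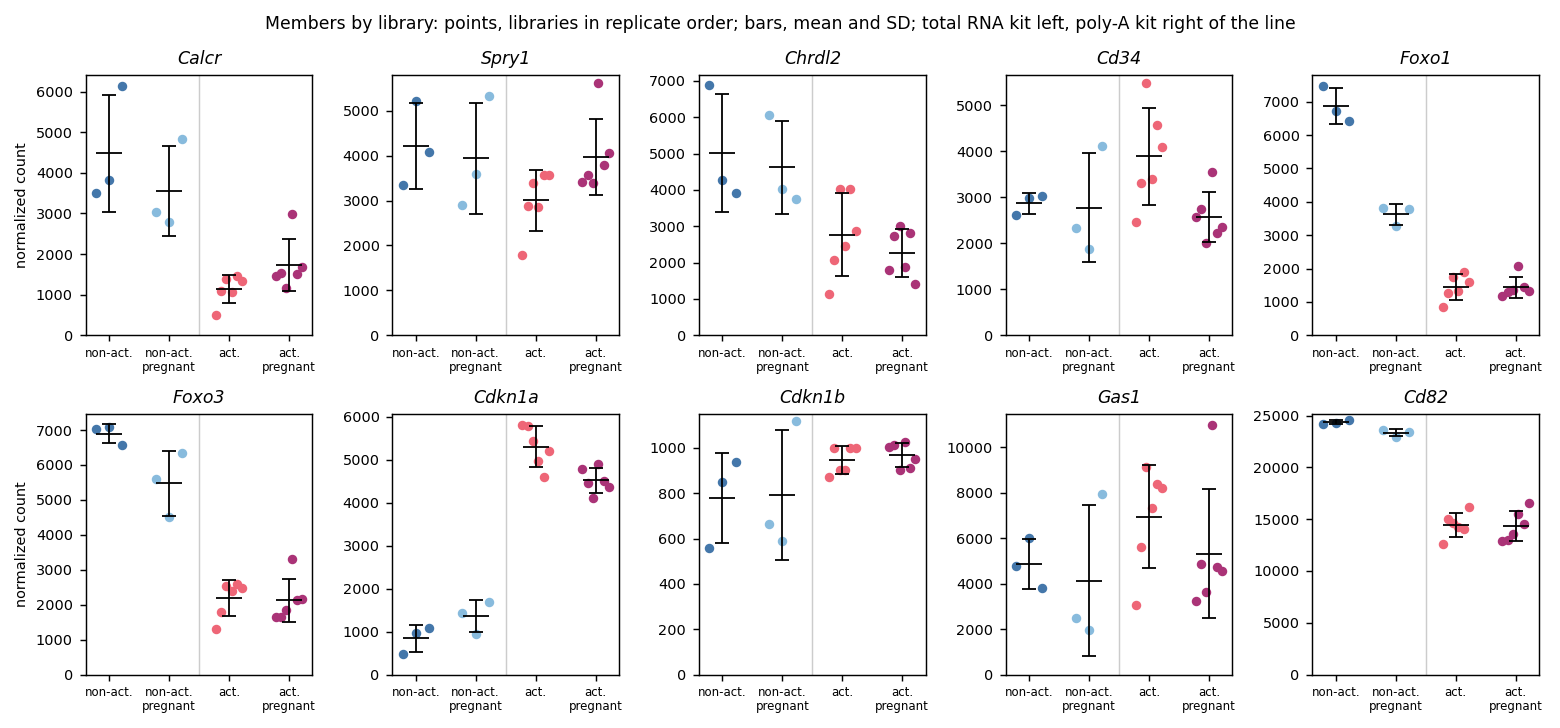
Normalized count of each gene (y axis, from 0) in each of the 18 libraries, by group (x axis). Points are libraries, bars are mean and SD, and the grey line separates the total RNA kit on the left from the poly-A kit on the right. Foxo1, Foxo3 and Cd82 lie lower, and Cdkn1a higher, in every activated library than in every non-activated library of the same pregnancy state.

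Foxo1 (ENSMUSG00000044167) spans chr3:52268336-52353221 on the plus strand of GRCm38 and had the largest fall of the 10 in non-pregnant mice. Its normalized counts were 7485, 6731 and 6421 in MuSC, and the 6 ACT libraries ran from 850 through a median of 1459 to 1902. Those groups lay far apart, with no ACT library near any MuSC library. The log2 difference was -2.29 ± 0.20 (SE; limma adjusted p = 4.54e-09). In pregnant mice, MuSCP libraries held 3826, 3269 and 3798 and ACTP libraries ran from 1187 through 1340 to 2067, again without overlap. There the log2 difference was -1.35 ± 0.20 (adjusted p = 5.82e-06). Activated cells reached almost the same mean from both starting points, 1449 ± 378 (SD, n = 6) in ACT and 1443 ± 317 (SD, n = 6) in ACTP.

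Of the 10, Foxo1 passed the test for pregnancy in non-activated cells, and Cdkn1a passed beside it when all 4 groups were in 1 fit (adjusted p = 0.0247). The mean fell from 6879 ± 547 (SD, n = 3) in MuSC to 3631 ± 314 (SD, n = 3) in MuSCP, a log2 difference of -0.92 ± 0.15 (limma adjusted p = 0.00288). Both groups shared a library kit, all 3 MuSCP libraries lay below all 3 MuSC libraries, and 4.62% of 10447 genes passed this test (301 higher and 182 lower; 46% of calls were higher with CPM, 51.5% with quantile normalization and 77.9% with the trend on genomic span removed, against 62.3% here). That share depends on the fit: with all 4 groups in 1 fit 2485 genes passed at rest, and the authors' deposited table had 2812 of 10725 past the same threshold. Libraries of the groups did not overlap for 23.7% of genes. The authors' deposited table gave Foxo1 a log2 fold change of -0.92 with an adjusted p of 0.000547. Foxo1 kept this call in every fit that left out 1 library, with adjusted p from 0.00671 to 0.0223. In activated cells the pregnancy difference was 0.02 ± 0.18 on the log2 scale (adjusted p = 0.953; 95% interval -0.36 to 0.40).

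Foxo3 (chr10:42181841-42276755, minus strand) fell with activation like Foxo1, but its pregnancy difference in non-activated cells did not pass. MuSC libraries held 7034, 7078 and 6584 normalized counts, and ACT libraries ran from 1316 through 2422 to 2591. All ACT libraries were low, and the log2 difference was -1.70 ± 0.22 (limma adjusted p = 8.91e-07). MuSCP libraries held 5591, 4502 and 6344, and ACTP libraries ran from 1652 through 1991 to 3308, for a difference of -1.39 ± 0.22 (adjusted p = 1.14e-05). Each MuSCP library lay under each MuSC library, with a log2 difference of -0.35 ± 0.16 (adjusted p = 0.273; 95% interval -0.69 to -0.000603).

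Cdkn1a (chr17:29090979-29100722, plus strand), which encodes p21, was the 1 gene that rose with activation. MuSC libraries held 484, 967 and 1075 normalized counts, and ACT libraries ran from 4601 through 5319 to 5804. Every ACT library exceeded every MuSC library, the ratio of means was 6.30, and the log2 difference was 2.73 ± 0.19 (limma adjusted p = 2.82e-10). MuSCP libraries held 1444, 951 and 1684, and ACTP libraries ran from 4100 through 4486 to 4897. The rise in pregnant mice was smaller, at a ratio of means of 3.32 and a log2 difference of 1.77 ± 0.19 (adjusted p = 1.45e-07).

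The pregnancy difference in Cdkn1a had opposite signs at rest and after injury, and which of them passed depended on the fit. In non-activated cells the mean was 842 ± 315 (SD, n = 3) without and 1360 ± 374 (SD, n = 3) with pregnancy, a log2 difference of 0.73 ± 0.30 that did not pass (limma adjusted p = 0.199), although the authors' deposited table gave 0.69 with an adjusted p of 0.0107, and the fit of all 4 groups gave 0.73 ± 0.22 (adjusted p = 0.0247). The value was 0.37 without MuSC 1, the library with the lowest Cdkn1a. In activated cells Cdkn1a was lower in pregnant mice, 4520 ± 288 (SD, n = 6) against 5302 ± 474 (SD, n = 6), a log2 difference of -0.23 ± 0.07 (adjusted p = 0.0280) between groups that overlapped. This small difference passed in a test that 27.5% of 10499 genes passed. It lost its call with all 4 groups in 1 fit (adjusted p = 0.452), in 5 of the 12 fits that left out 1 library, and in the authors' deposited table (adjusted p = 0.379).

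Cdkn1b (chr6:134920401-134925513, plus strand), which encodes p27, held 558, 849 and 937 normalized counts in MuSC and 871 through 952 to 1001 in ACT, and these groups overlapped. The log2 difference was 0.31 ± 0.17 (limma adjusted p = 0.105). It was 0.0835 without MuSC 1 and 0.46 without MuSC 3 (adjusted p = 0.0360), and it passed with CPM at 0.50 (adjusted p = 0.0104). In pregnant mice, MuSCP libraries held 664, 589 and 1120 against 901 through 978 to 1025 in ACTP, for 0.35 ± 0.17 (adjusted p = 0.0697). Without MuSCP 3, the library with the highest Cdkn1b of its group, that value was 0.63 (adjusted p = 0.000831). Its levels were nearly level among activated libraries, with an SD of 6.38% of the mean in ACT and 5.52% in ACTP, and pregnancy moved them by 0.03 ± 0.06 (adjusted p = 0.706).

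Calcr (chr6:3685680-3764714, minus strand) fell with activation in both states. MuSC libraries held 3498, 3817 and 6143 normalized counts, and ACT libraries ran from 510 through 1210 to 1455. All ACT libraries lay below all MuSC libraries, and the log2 difference was -2.01 ± 0.31 (limma adjusted p = 1.03e-05). MuSCP libraries held 3025, 2792 and 4826, and ACTP libraries ran from 1163 through 1526 to 2988, so ACTP 4 alone overlapped with MuSCP. The difference in pregnant mice was -1.07 ± 0.31 (adjusted p = 0.00466), and it was -0.65 with quantile normalization (adjusted p = 0.0867). It also lost its call with 1 variance per group (adjusted p = 0.201). Between the activated groups Calcr had a mean of 1141 ± 349 (SD, n = 6) in ACT and 1723 ± 643 (SD, n = 6) in ACTP, a log2 difference of 0.60 ± 0.25 that did not pass (adjusted p = 0.0867).

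Spry1 (chr3:37639947-37644598, plus strand) did not pass in any of the 4 comparisons. MuSC libraries held 3341, 5224 and 4072 normalized counts and ACT libraries 1786 through 3135 to 3572. Its log2 difference in non-pregnant mice was -0.50 ± 0.22 with a limma adjusted p of 0.0506, just outside the threshold, and the authors' deposited table gave -0.49 with 0.0338. It passed in 7 of the 18 fits that left out 1 library. The value in pregnant mice was 0.03 ± 0.22 (adjusted p = 0.895), with 2903, 3584 and 5320 in MuSCP and 3391 through 3672 to 5614 in ACTP. Between activated groups the difference was 0.41 ± 0.17 (adjusted p = 0.0758).

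Chrdl2 (chr7:100006172-100034728, plus strand) fell with activation, with less support than Calcr. MuSC libraries held 6889, 4280 and 3902 normalized counts, and ACT libraries ran from 1123 through 2664 to 4039, so the groups overlapped at the edge. The log2 difference was -0.94 ± 0.34 (limma adjusted p = 0.0179), and without MuSC 1, its highest library, it was -0.69 (adjusted p = 0.119). In pregnant mice MuSCP libraries held 6075, 4027 and 3753, all above the ACTP range of 1399 through 2303 to 3000. The difference there was -1.04 ± 0.34 (adjusted p = 0.00960), and -0.83 without MuSCP 1 (adjusted p = 0.0664). With quantile normalization both calls were lost, at -0.55 (adjusted p = 0.166) and -0.58 (adjusted p = 0.152), as they were with CPM (0.0535 and 0.0503) and with 1 variance per group (0.189 and 0.262).

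Gas1 (chr13:60174405-60177365, minus strand) varied more between libraries of a group than any other of the 10 in MuSCP and ACTP, with an SD of 80.1% of the mean in MuSCP and 53.3% in ACTP. MuSC libraries held 4759, 5991 and 3803 normalized counts and ACT libraries 3075 through 7764 to 9125, for a log2 difference of 0.46 ± 0.41 (limma adjusted p = 0.327). MuSCP libraries held 2494, 1962 and 7945, and ACTP libraries ran from 3218 through 4643 to 10966. The single high MuSCP library decided what the pregnancy comparison showed at rest: the log2 difference was -0.49 ± 0.37 (adjusted p = 0.516) with MuSCP 3 and -1.11 (adjusted p = 0.0109) without it. The activation difference in pregnant mice likewise went from 0.52 ± 0.41 (adjusted p = 0.263) to 1.14 (adjusted p = 0.0162) without MuSCP 3. That library also held the highest sum of fibro-adipogenic progenitor markers of its group, 30918 against 13241 and 15727, and their part in the Gas1 values was not tested.

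Cd34 (chr1:194938819-194961279, plus strand) did not pass in either activation comparison. MuSC libraries held 2609, 2975 and 3027 normalized counts and ACT libraries 2469.5 through 3744 to 5477, for a log2 difference of 0.39 ± 0.24 (limma adjusted p = 0.140), and it passed without ACT 1 (0.52, adjusted p = 0.0441) and with quantile normalization (0.80, adjusted p = 0.00470). In pregnant mice MuSCP libraries held 2331, 1881 and 4123 and the value was -0.05 ± 0.24 (adjusted p = 0.856), with the sign turned to 0.24 by CPM and to 0.38 by quantile normalization. Among activated cells Cd34 was lower in pregnant mice, with 2016 through 2462 to 3552 in ACTP and a log2 difference from ACT of -0.57 ± 0.17 (adjusted p = 0.0280). These groups overlapped, as did those of each of the 10 genes in this comparison, where 12% of genes had groups apart. The authors' deposited table gave -0.59 with an adjusted p of 0.0316. The call was lost in 6 of the 12 fits that left out 1 library, at adjusted p up to 0.0576, and with all 4 groups in 1 fit (adjusted p = 0.0946). Cd34 also marks endothelial cells and fibro-adipogenic progenitors. The summed endothelial markers ran from 1922 to 2768 in ACT and from 1250 to 4769 in ACTP, and the summed progenitor markers were higher in every ACTP library (94319 to 141689) than in every ACT library (49809 to 83482). Their part in the Cd34 values was not tested.

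Cd82 (chr2:93419111-93463140, minus strand) showed the tightest levels at rest. MuSC libraries held 24191, 24332 and 24576 normalized counts and MuSCP libraries 23603, 22944 and 23461. ACT libraries ran from 12622 through 14399.5 to 16173 and ACTP libraries from 12874 through 14054 to 16547, far below both. The log2 difference was -0.76 ± 0.10 in non-pregnant mice (limma adjusted p = 1.71e-06) and -0.71 ± 0.10 in pregnant mice (adjusted p = 4.31e-06), and in pregnant mice it was -0.30 with quantile normalization (adjusted p = 0.00817) and -0.42 with CPM (adjusted p = 0.000558). The pregnancy differences were -0.06 ± 0.15 at rest (adjusted p = 0.871) and -0.01 ± 0.08 after injury (adjusted p = 0.923).

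**Figure D2:**
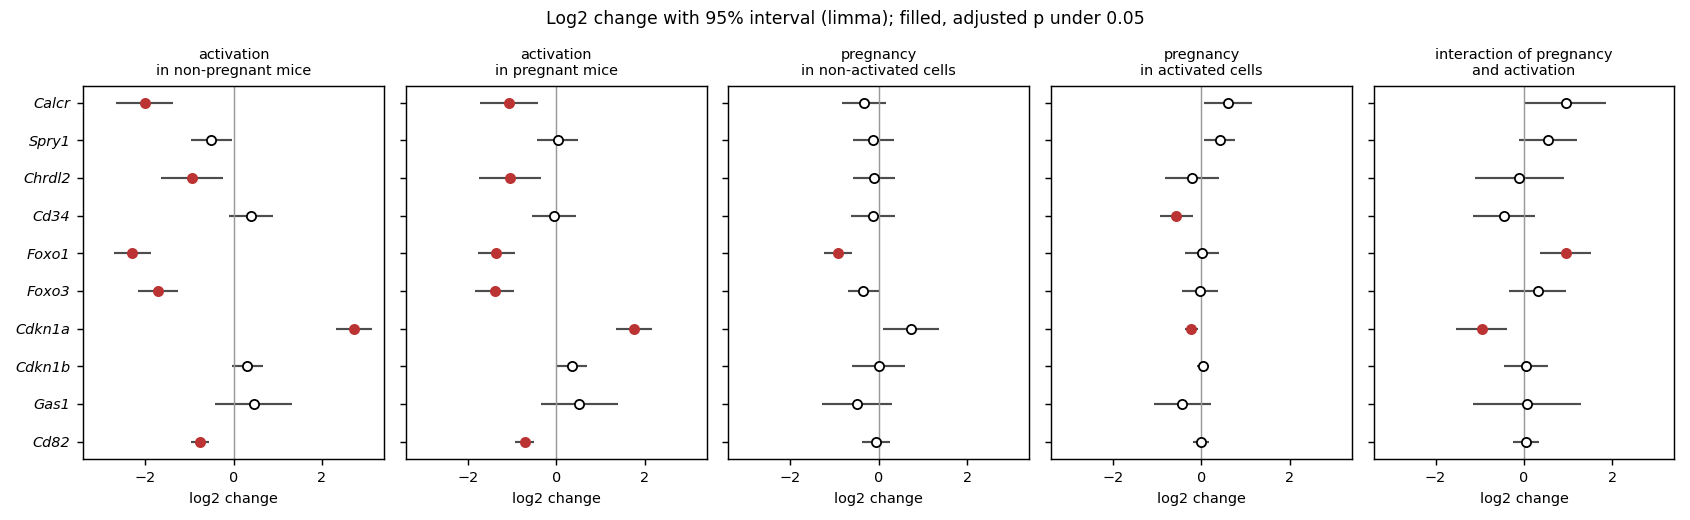
Log2 difference (x axis) of each gene (y axis) in the 5 comparisons, with 95% intervals from limma. Filled points passed at an adjusted p under 0.05: 6 genes in each activation comparison, Foxo1 for pregnancy at rest, Cd34 and Cdkn1a for pregnancy after injury, and Foxo1 and Cdkn1a for the interaction.

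The interaction asked whether the activation difference itself depended on pregnancy, a contrast from which a kit effect that is constant on the log2 scale drops out. Foxo1 and Cdkn1a passed, and 15.1% of 10751 genes did so (842 higher and 778 lower; 67.2% of calls were higher with CPM and 29.9% with the trend on genomic span removed, against 52.0% here). For Foxo1 the difference of differences was 0.94 ± 0.28 (limma adjusted p = 0.0304), a smaller fall in pregnant mice from a lower starting level. For Cdkn1a it was -0.96 ± 0.27 (adjusted p = 0.0257), a smaller rise from a mean at rest that was higher by value. Both calls were lost when each group was given its own variance, at adjusted p of 0.513 for Foxo1 and 0.189 for Cdkn1a. Foxo1 also lost its call without MuSC 1 (adjusted p = 0.0586), MuSC 2 (0.0534) or MuSCP 2 (0.0650). Cdkn1a lost its call without MuSCP 3 (adjusted p = 0.0597), and without MuSC 1 the value was -0.60 (adjusted p = 0.0481). Calcr had the same size of interaction as Foxo1, 0.94 ± 0.44, but did not pass (adjusted p = 0.152).

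The size of a gene's span in the genome went with the activation difference over all genes, and several of the 10 genes lay off that trend. Genes with a span under 10 kb had a median log2 difference of 1.46 in non-pregnant mice, and this fell through 0.74, 0.11 and -0.67 to -1.64 for genes over 100 kb. Spry1, Cdkn1a, Cdkn1b and Gas1 are in the shortest class, Chrdl2, Cd34 and Cd82 in the class of 20 to 50 kb, and Calcr, Foxo1 and Foxo3, at 79.0, 84.9 and 94.9 kb, in the class of 50 to 100 kb. With each library's trend on span removed, the falls of Foxo1, Foxo3 and Calcr in non-pregnant mice were -1.62 (limma adjusted p = 1.25e-06), -0.92 (0.000943) and -1.40 (0.000583), and the rise of Cdkn1a was 1.58 (3.42e-08). In pregnant mice they were -0.87 (adjusted p = 0.000954), -0.82 (0.00247), -0.64 (0.0718) and 0.57 (0.00231), so Calcr lost its call there. The same step put short genes lower: Spry1 went to -2.10 and -1.53, Cdkn1b from 0.31 to -1.25 and from 0.35 to -1.18, and Gas1 from 0.46 to -1.35 and from 0.52 to -1.19, in non-pregnant and pregnant mice, and all 6 of these values passed. Whether the trend comes with the kit or with activation cannot be told apart. The all-gene median itself was 0.36 and 0.50 with CPM, near 0.01 with quantile normalization and -0.10 and -0.18 with the span trend removed, and the share of calls that were higher was 43.1% and 39.7% under the last, against 53.7% and 55.3% here.

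**Figure D3:**
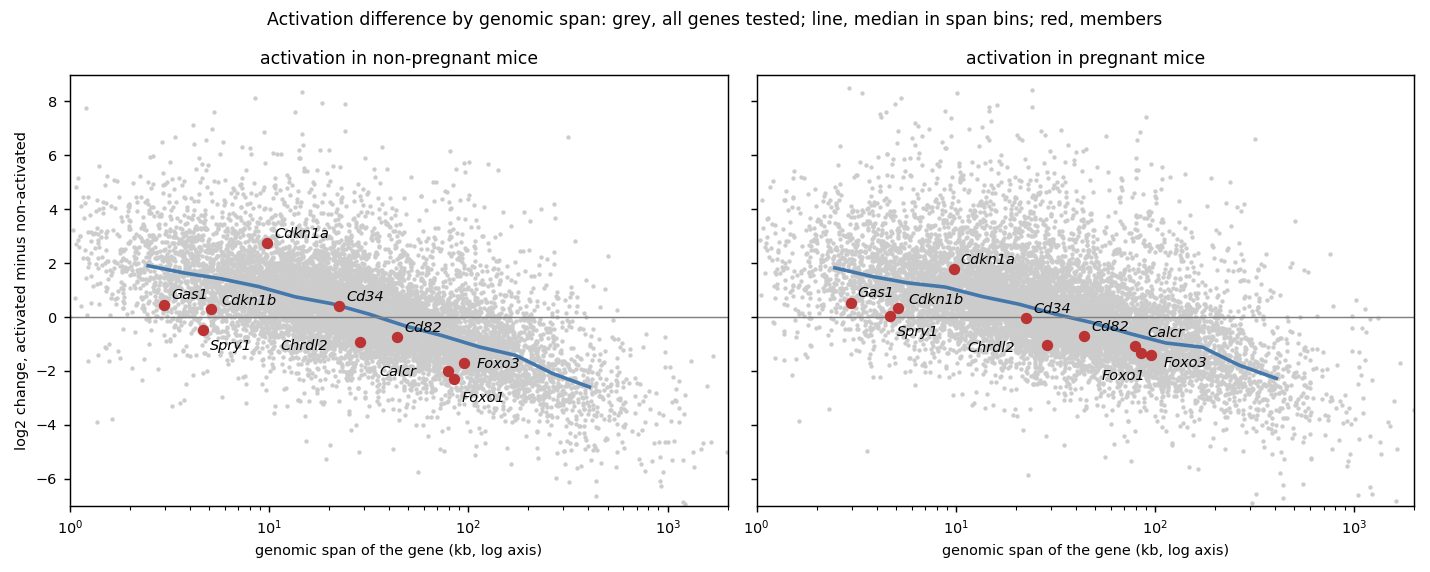
Log2 difference between activated and non-activated cells (y axis) against the genomic span of each gene in kb (log x axis), in non-pregnant (left) and pregnant mice (right). Grey points are all genes tested, the line is their median in span bins and red points are the 10 genes. Cdkn1a lies above the line and Foxo1 below it in both panels.

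Within the activated groups, many of the 10 genes were high or low in the same libraries. ACT 1 was the lowest library of its group for 9 of the 10 genes and the highest for Cdkn1a, and ACTP 4 was the highest of its group for 8. After each value was set against its group mean on the log2 scale, the 12 libraries gave a Pearson r above 0.8 for 14 of 45 pairs of genes, with a median of 0.55. Calcr and Spry1 had the highest r, 0.98 (Spearman's rho 0.99), and it was 0.88 without ACT 1 and ACTP 4. Cdkn1a stood outside this pattern, with its lowest r at -0.60 with Chrdl2. These libraries share a kit and 2 groups, and the correlations describe them without a test. Over all genes, ACT 1 and ACTP 4 had the lowest mean r with their own groups, 0.982 and 0.980. The share of all gene pairs with an r above 0.8 was not computed, so the pattern is not shown to be particular to these 10 genes.

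ACT 1, with low levels of most of these genes, had high levels of several proliferation genes, and ACTP 4 was low for some and not for others. Rrm2, a subunit of ribonucleotide reductase, held 8915 normalized counts in ACT 1, the highest of its group, and 2639 in ACTP 4, the lowest of its group. Mcm5, part of the replicative helicase, held 5100 and 1962 in the same 2 libraries. Ccnb2, a mitotic cyclin, held 1475 in ACTP 4, the highest of the 12 libraries, and Cdc20 held 1528 there, the second highest of its group. ACT 1 also held the lowest satellite cell marker sum of its group, 64919 against 81364 to 103487. Its fibro-adipogenic progenitor marker sum was the highest, 83482 against 49809 to 74185. ACTP 4 held the highest satellite cell marker sum of its group, 107139, and its progenitor sum, 136181, was exceeded only by ACTP 6, 141689. The part of these sums in the gene levels and in the r values that follow was not tested. Against the mean of 8 proliferation genes, centred in the same way, the r over the 12 libraries was -0.92 for Cd34 (rho -0.88), -0.90 for Foxo1 (rho -0.78), -0.88 for Calcr (rho -0.80), -0.86 for Spry1 (rho -0.79), -0.84 for Gas1 (rho -0.87) and -0.82 for Foxo3 (rho -0.78). Without ACT 1 and ACT 3, the libraries farthest from the median of the proliferation mean, these 6 values ran from -0.83 to -0.74, and without ACT 1 and ACTP 4 from -0.85 to -0.65, the last for Foxo3. Chrdl2 had -0.66, and -0.26 without ACT 1 and ACT 3. Cd82 had -0.46 and Cdkn1b -0.40, and without ACT 1 and ACTP 4 these were -0.0614 and 0.0202. Cdkn1a had 0.22. How often other genes reach an r this low with the proliferation mean was not computed. The inverse pattern is thus not shown to be particular to these genes.

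**Figure D4:**
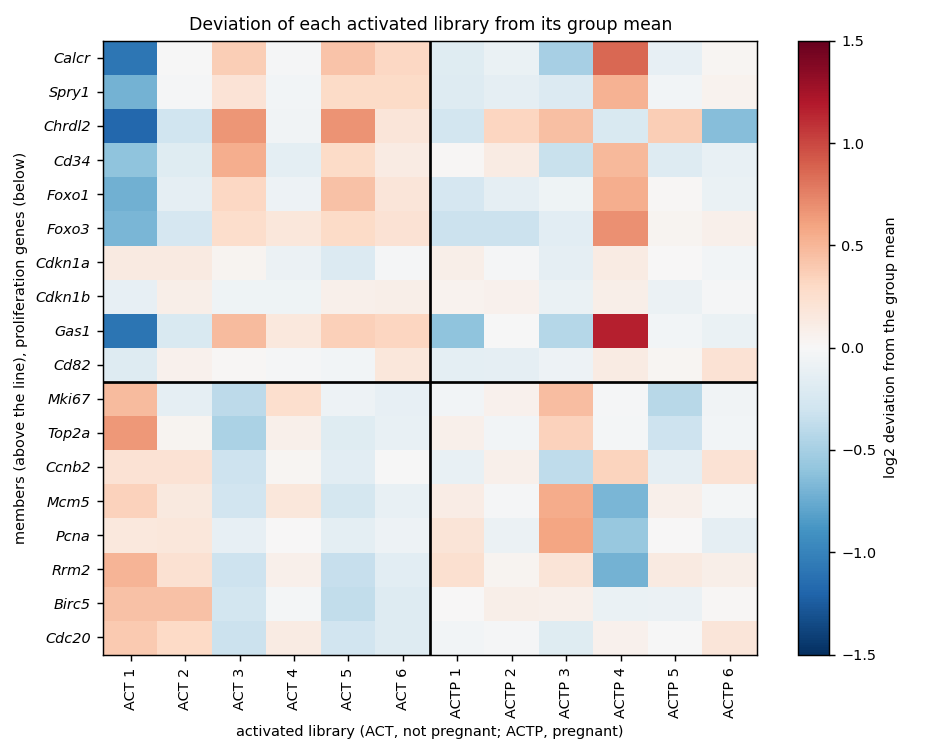
Deviation of each of the 12 activated libraries (columns) from its group mean on the log2 scale (colour) for the 10 genes (above the line) and 8 proliferation genes (below it). ACT 1 is low for most of the 10 genes and high for the proliferation genes, and ACTP 4 is high for Calcr, Gas1 and Foxo3 and low for Mcm5, Pcna and Rrm2.

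Over the 10498 genes searched, the genes most like Calcr across the 12 activated libraries were Spry1, Gabra3 (r = 0.97), a GABA receptor subunit, and Ezh1 (r = 0.97), a histone H3 lysine methyltransferase. Most like Spry1 after Calcr were Cables1 (r = 0.98), which binds CDKs, and Cib2 (r = 0.98), a calcium-binding protein. Without ACT 1 and ACTP 4 these 4 values were 0.83, 0.88, 0.89 and 0.87. Most like Cdkn1a were Rab12 (r = 0.91), a small GTPase, Cdk20 (r = 0.88), a kinase of the CDK family, and Cep44 (r = 0.83), a centrosomal protein. Without ACT 1 and ACTP 4 these 3 values were 0.89, 0.82 and 0.82. All genes named here were picked as the highest of 10498 values over 12 libraries, and such a search favours a high r by itself. The r it would give for unrelated genes was not computed, so no link between the genes is shown.

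Other CDK inhibitors, of the INK4 and p57 kind, were tested beside Cdkn1a. Of all genes, 39% passed as higher and 33.6% as lower with activation in non-pregnant mice, and 40.3% and 32.6% in pregnant mice. In non-pregnant mice 4 of 4 tested passed as higher, led by Cdkn2b at a log2 difference of 3.50, Cdkn1c at 2.92 and Cdkn2c at 2.79, while Cdkn2a held no value. Cdkn2b was low, at 0 to 11.5 normalized counts in MuSC and 24.4 to 49.1 in ACT, and in pregnant mice it did not pass (-0.12, limma adjusted p = 0.855), with an interaction of -3.62 (adjusted p = 0.00674). In pregnant mice 3 of the 4 rose and 0 fell, and with the span trend removed this became 2 and 1. Of the cyclins and kinases that these inhibitors act on, 3 of 6 tested rose and 0 fell, with Cdk1 at 4.73, Ccne1 at 4.06 and Cdk2 at 1.46. All 8 proliferation genes rose, with Rrm2 at 6.51, Cdc20 at 5.91 and Top2a at 4.63, and they did so in pregnant mice too. Genes that mark p27 for degradation rose in 4 of 5 cases and fell in 1, led by Cks1b, the cofactor of Skp2, at 6.51, with Uhmk1 at 1.06 and Skp2 at 0.99. Pocket protein and DREAM genes, which repress the cell cycle at rest, split into 2 higher and 4 lower of 8 tested, with Lin52 at -2.96, E2f4 at 1.62 and Lin54 at -0.86, and with the span trend removed into 3 higher and 2 lower.

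Genes downstream of the FOXO factors and of p53 did not move as blocks. Of 14 FOXO relatives and targets tested in non-pregnant mice, 6 were higher and 4 lower, with Bnip3 at 2.89, Foxo6 at 2.54 and Ccng2 at 1.41, and with the span trend removed 2 were higher and 4 lower. Of 14 p53 genes and targets, 7 were higher and 1 lower, with Phlda3 at 3.09, Bax at 2.68 and Ei24 at 1.56, but with the span trend removed the p53 split was 2 higher and 6 lower. In pregnant mice the p53 split was 7 and 3. At rest, pregnancy raised Plk2, a polo-like kinase and p53 target, by 1.32, and Sod2, the mitochondrial superoxide dismutase, by 1.25, and lowered Sesn1, a stress-induced sestrin, by -0.90. After injury Klf15 was lower in pregnant mice at -1.11, Btg2 at -0.97, Phlda3 at -0.40, Bnip3 at -0.32 and Trp53 at -0.28, and Ccng2 was higher at 0.35.

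Relatives of Spry1 split by gene. Of 12 receptor tyrosine kinase inhibitors and related genes tested in non-pregnant mice, 2 rose and 6 fell, with Spred2 at -1.40 and Spred1 at -1.29. Spry2 was at 1.08, and its sign turned to -0.50 with the span trend removed, under which 0 of the 12 rose and 9 fell. Pregnancy raised 3 of the 12 at rest, Spry2 at 1.11, Spred1 at 0.73 and Errfi1 at 0.66, and 4 of the 12 after injury, among them Spred3 at 0.68, Spred1 at 0.41 and Spry2 at 0.22, and lowered 0 in both. With CPM the count at rest was 2 higher and 1 lower. Errfi1 encodes an inhibitor of the EGF receptor, and the Spred proteins inhibit the RAS to ERK pathway.

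Around Calcr, 2 of 10 genes of its pathway rose and 5 fell in non-pregnant mice, with Gnas, the gene of the stimulatory G protein subunit, at -4.43, the adenylyl cyclase Adcy9 at -2.77 and Yap1 at -1.33. At rest pregnancy raised the receptor Calcrl (0.85) and lowered Adcy9 (-0.98), and after injury the collagen V chains Col5a1 (0.52) and Col5a2 (0.45) were higher in pregnant mice. In that comparison 8 of 10 fibro-adipogenic progenitor markers were also higher, among them Col1a1 (1.11) and Pi16 (1.98), and their part in the collagen V values was not tested. Around Chrdl2, 4 of 12 BMP pathway genes rose and 6 fell, and the BMP target genes Id2 (2.81) and Id1 (2.19) and the related Chrdl1 (2.57) were the largest. With the span trend removed the split was 2 higher and 6 lower. After injury Id1 (-0.63) and Id3 (-0.58) were lower in pregnant mice and Bmp2 (0.39) was higher, and at rest 0 of the 12 passed. Around Gas1, 10 genes were tested, which were hedgehog genes and Ret, a gene outside that pathway. Of these, 0 rose and 8 fell, with Gli2 at -3.44, Hhip at -2.28 and Ret at -1.11. With the span trend removed 1 was higher and 4 lower. Gli2 was lower in pregnant mice at rest (-1.17), and Ret (0.93) and Boc (0.33) were higher after injury.

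Of the other tetraspanins, Cd63, Cd151 and Cd81 (1.08) rose with activation in non-pregnant mice and Cd9 did not pass (0.14, limma adjusted p = 0.160). Of 7 tetraspanins and integrin partners tested in non-pregnant mice 5 rose and 0 fell, with Cd63 at 2.88, Cd151 at 1.99 and Itga3 at 1.71, and in pregnant mice 6 rose. Pregnancy raised Cd63 at rest (0.90), and after injury Cd63 (-0.21) and Cd151 (-0.25) were lower and Cd9 (0.27) higher. In the CD34 family Selp (3.13) and Podxl (1.49) rose and Podxl2 (-0.96) fell, and 0 of 3 passed in either pregnancy comparison. Of 29 other satellite cell quiescence genes, 12 were higher and 11 lower after activation, with Dmd at -4.60, Pax3 at -2.98 and Ncam1 at -2.91, but the split was 5 and 17, and Dmd had 0.28, with the span trend removed. Pregnancy at rest gave Tshz1 (1.13) and Vcam1 (0.98), the sorting marker, as higher and Heyl (-0.90), a Notch target, as lower, and after injury Hes1 (-0.87) and Heyl (-0.60) were lower. In the other lists pregnancy at rest lowered Ccnd1 (-0.98), the gene of cyclin D1, and after injury it raised Ccnd2 (0.91) and lowered Ccne1 (-0.62), Rrm2 (-0.54), Cdkn2d (-0.52), E2f4 (-0.27) and Skp1a (-0.19). The lists hold genes known for their pathway, and their counts are read against the shares of all genes called. For activation these were 72.6% in non-pregnant mice (39% higher and 33.6% lower) and 72.8% in pregnant mice (40.3% and 32.6%). For pregnancy they were 4.62% at rest (2.88% higher and 1.74% lower) and 27.5% after injury (14% and 13.4%). The shares for pregnancy depend on the fit. With all 4 groups in 1 fit pregnancy called 2485 genes at rest and 578 after injury. The authors' deposited table had 2812 and 1036 of 10725.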

How the data were processed

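RNA-seq of sorted satellite cells was used for 18 libraries in 4 groups, assigned from the sample titles. Per the submitters' processing notes, the tools named were DESeq2 1.22.1, HTSeq 0.6.0, TopHat2 2.0.14 and cutadapt 1.12, on the GRCm38 build, and roles and settings are not given in the sources used here. The authors deposited 1 table with raw counts, normalized counts and their own log2 fold changes and adjusted p-values per gene, per the file headers. Within each library, raw divided by normalized count was constant. Genes without a value hold question marks, so a count model, planned for columns of plain counts, was replaced by a test on the log scale. The 6 per-sample columns of other libraries were not used.

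Gene levels were log2(normalized count + 1), kept where the normalized count was at least 10 in as many libraries as the smallest group, and tested with limma 3.58.1 in R 4.3.3 (trend in the variance, Benjamini-Hochberg adjustment over all genes, threshold 0.05). Activation and interaction used all 4 groups in 1 fit, and pregnancy used 2 groups. All 10 genes passed the filter in every comparison. A fold change on this scale understates the change of low genes. Levels between genes were not compared, since no transcript length is given per gene. Tables and figures were made with Python 3.11.15, pandas 2.3.3 and matplotlib 3.10.9, and the fits were checked on simulated data with 200 changed genes. Genes were named by rule: all 10 genes, the 3 largest calls of each list of related genes, and the 3 genes most like Calcr, Spry1 and Cdkn1a. The genes and lists were chosen with earlier results of these data known. Alternatives covered the pseudocount (0.5 and 10), the filter (none and 50), CPM, recomputed size factors, quantile normalization, voom weights, group variances, genomic span, the replicate number as a block, the groups in the fit, a test beyond 1.5-fold and each library left out. Whole-number read counts set the precision, and the spread between libraries is the error given. Same-numbered libraries did not deviate together (r from -0.175 to 0.141). That gave no sign of pairing by number but cannot exclude it, and the labels do not say.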

Additional observations from a re-analysis of the deposited data

Results flagged for a closer look

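Among the 20 sets of 6 activated libraries examined for a single library far from the rest (10 genes in ACT and in ACTP), 5 stood out, and all were high values in ACTP 4. The measure was Dixon's ratio on normalized counts, the gap to the next library over the range, with 0.625 as the limit. ACT 1 came near it on the low side, at 0.589 for Calcr and 0.598 for Spry1. The log2 scale used for the tests gives low values more weight, and flags on it were not computed. The normalized counts there were 2988 for Calcr, 5614 for Spry1, 2067 for Foxo1, 3308 for Foxo3 and 10966 for Gas1. For normally distributed values, chance gives such a flag in about 1 of 20 sets. The 5 sets share 1 library, so they are not independent. ACTP 4 also held the lowest Mcm5, Pcna and Rrm2 among the activated libraries, at 1962, 2190 and 2639 normalized counts, but the highest Ccnb2 of them, at 1475, and its Mki67, Top2a and Cdc20 were near or above its group mean. Its sum of 7 of 8 smooth muscle and pericyte markers, 40987, was the highest of its group, as was its sum of 5 of 8 myofibre markers, 1367, while its sum of fibro-adipogenic markers, 136181, was exceeded by that of ACTP 6, 141689. Its sum of 6 of 8 satellite cell markers, 107139, was the highest of its group as well. The part of these marker sums in the result was not tested.

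The interaction of pregnancy and activation passed for Foxo1, at 0.94 on the log2 scale (limma adjusted p = 0.0304), and for Cdkn1a, at -0.96 (adjusted p = 0.0257). In that test 15.1% of all genes passed. Both calls were lost when each group was given its own variance. Leaving out 1 library lost the call in 3 fits for Foxo1 and in 1 fit for Cdkn1a. By log2 value, the pregnant and non-pregnant groups differed more at rest than after injury for both genes. For Cdkn1a the difference at rest, 0.73, did not pass (limma adjusted p = 0.199), while that after injury, -0.23, did (adjusted p = 0.0280). In normalized counts the Cdkn1a gap was wider after injury, with means of 5302 in ACT and 4520 in ACTP, against 842 in MuSC and 1360 in MuSCP.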

How the results depend on the processing

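Among results for single genes, 1232 alternative values kept direction and side of the threshold, 40 lost the call, 33 gained it and 55 changed sign. Foxo1, Foxo3, Cd82 and Cdkn1a kept their direction in every activation fit run, and kept their call in all but the test beyond 1.5-fold, where Cd82 lost it. The sign changed with the span trend removed for Cd34 (-0.0531), Cdkn1b (-1.25) and Gas1 (-1.35) in activation of non-pregnant mice, for Spry1 (-1.53), Cdkn1b (-1.18) and Gas1 (-1.19) in pregnant mice, for Cdkn1b (0.0529) and Cd82 (0.0147) in pregnancy at rest, for Foxo1 (-0.0924) in pregnancy after injury and for Cd82 (-0.10) in the interaction. In pregnant mice Cd34 turned to 0.24 with CPM, 0.38 with quantile normalization and 0.18 without MuSCP 3 and ACTP 4, a pair left out after the values had been seen, and Spry1 to -0.14 with the replicate block. Cd82 turned to 0.0490 with quantile normalization in pregnancy after injury. In these cases the cause was not tested.

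A test beyond 1.5-fold called 5110 genes for activation in non-pregnant and 4984 in pregnant mice, and 3 of the 10 genes in the latter, as its stricter null implies. With all 4 groups in 1 fit, pregnancy called 2485 genes and 2 of the 10 at rest (Foxo1 and Cdkn1a), and 578 genes and 0 of the 10 after injury. With 1 variance per group the interaction called 12 genes and 0 of the 10. It called 1 of the 10 with the span trend removed, 1 with the replicate block and 1 without MuSCP 3 and ACTP 4. With the replicate block 0 of the 10 passed for pregnancy after injury (limma adjusted p = 0.0634 for Cd34 and 0.0596 for Cdkn1a). Whether the numbers pair the libraries is not known.

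Leaving out 1 library at a time gave 7523 to 8114 genes for activation in non-pregnant mice, 7604 to 8143 in pregnant mice, 237 to 441 for pregnancy at rest, 1959 to 2836 after injury and 1297 to 2301 for the interaction. Of the 10 genes it gave 6 to 8, 5 to 8, 1 to 2, 0 to 2 and 1 to 2. Where a sign changed, the values ran from -0.29 to 0.28 for Cd34 and -0.16 to 0.28 for Spry1 in activation of pregnant mice. In pregnancy at rest they ran from -0.45 to 0.11 for Cd34, -0.29 to 0.18 for Cdkn1b, -0.32 to 0.14 for Chrdl2 and -0.36 to 0.0761 for Spry1. After injury they ran from -0.0550 to 0.0209 for Cd82, -0.13 to 0.10 for Foxo1 and -0.17 to 0.0271 for Foxo3. In the interaction they ran from -0.14 to 0.32 for Cdkn1b, -0.36 to 0.11 for Chrdl2 and -0.33 to 0.68 for Gas1. The groups at rest hold 3 libraries each, and none of the 10 genes was near the count minimum.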

Other observations

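Several genes of the related lists had an activation difference that depended on pregnancy, on the log2 scale and by limma over all genes. Ccnd2, the gene of cyclin D2, had an interaction of 3.24 (adjusted p = 0.00901). Its levels were low in MuSCP, at 2.22 to 45.5 normalized counts, against 49.2 to 109 in MuSC. The p53 target Plk2 had -1.17 (adjusted p = 0.000157), the mitochondrial superoxide dismutase Sod2 -1.07 (adjusted p = 0.000905), and the tetraspanin Cd63 -1.10 (adjusted p = 0.000429). Plk2, Sod2 and Cd63 were each higher in pregnant mice at rest, as Cdkn1a was by value. Far fewer genes passed the interaction with 1 variance per group, and whether these genes were among them is not given here.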
